A study of Mus musculus with 6 samples.

Results

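The 10 genes Snai1, Snai2, Twist1, Twist2, Zeb1, Zeb2, Foxc2, Ovol1, Ovol2 and Grhl2 encode transcription factors that act on opposite sides of the switch between epithelial and mesenchymal states. They were taken as a fixed list and read on every probe whose RefSeq transcript maps to one of them, which gave 12 of the 55681 probes on the array. All 10 were among the 15680 genes that could be tested. Each was read by 1 tested probe, and Zeb2 and Grhl2 each had a second probe that was too dim to test.

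The samples were RNA from mammary cells of virgin C57/B6 mice of genotype lgr5-egfp-ires-creert2, in which EGFP reports the Lgr5 locus. Both groups were sorted as Lin-negative, CD24-positive and CD29-high, a gate called P4 in the labels and enriched in basal cells, and then split by EGFP into Lgr5-positive and Lgr5-negative cells, with 3 arrays per group. All animals carried the reporter allele, no treatment is named in the labels, and their exact age is not given. On each array the sample carried Cy5, and a common reference RNA pooled from 11 mouse cell lines carried Cy3. The labels do not say whether the replicates came from separate animals, so p-values measure only the spread between these samples, which may be technical.

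Epithelial-to-mesenchymal transition is a programme in which cells lose junctions and polarity and gain motility and matrix contacts. The zinc finger repressors Snai1 (Snail), Snai2 (Slug), Zeb1 and Zeb2, the basic helix-loop-helix factors Twist1 and Twist2, and the forkhead factor Foxc2 can drive it, in part by repressing Cdh1, the gene of E-cadherin. Ovol1, Ovol2 and Grhl2 hold cells in the epithelial state, and Ovol2 and Grhl2 repress Zeb1. In the mammary gland Snai2 marks basal cells. Zeb, Twist and Snail factors are also made by stromal cells, and Foxc2 takes part in the growth of lymphatic vessels.

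The results turn on Snai1 and Zeb2, which were lower in Lgr5-positive cells, and on Ovol2, which followed the replicate number, so the sequences before their start sites are shown. RefSeq promoter windows of assembly GRCm38.p6 matched 5 of the 10 genes by symbol, with 8 windows in all. The windows are the 250 bases before the start site, 5′ to 3′ on the strand of the gene. That of Snai1 lies at chr2:167537945-167538194 (plus strand), the most upstream one of Zeb2 at chr2:45117443-45117692 (minus strand) and that of Ovol2 at chr2:144331363-144331612 (minus strand). Capitals mark the E-box CAGGTG or its reverse complement CACCTG, the letters that Snail and Zeb proteins bind.
Snai1: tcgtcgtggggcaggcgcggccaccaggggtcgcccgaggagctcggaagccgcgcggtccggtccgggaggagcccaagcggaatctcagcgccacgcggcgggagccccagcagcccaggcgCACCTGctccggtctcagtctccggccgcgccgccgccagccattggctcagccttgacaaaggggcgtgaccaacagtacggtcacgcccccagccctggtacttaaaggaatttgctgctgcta
Zeb2: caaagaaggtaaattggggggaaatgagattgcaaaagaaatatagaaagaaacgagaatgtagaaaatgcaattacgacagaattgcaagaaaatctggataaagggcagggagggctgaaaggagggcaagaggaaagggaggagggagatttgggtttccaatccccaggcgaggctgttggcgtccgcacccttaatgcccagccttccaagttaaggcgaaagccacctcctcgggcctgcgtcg
Ovol2: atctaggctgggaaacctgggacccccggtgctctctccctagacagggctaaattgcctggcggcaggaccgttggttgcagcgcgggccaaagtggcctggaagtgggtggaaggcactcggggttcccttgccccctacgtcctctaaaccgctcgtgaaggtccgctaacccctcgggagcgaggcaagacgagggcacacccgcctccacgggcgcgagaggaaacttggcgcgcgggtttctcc
The Snai1 window held 1 such E-box, whose first base lies 126 bases before the start site. No other window of a member held one, against 17.2% of the 32851 windows in the table. The grainyhead motif AACCGGTT (0.116% of all windows) and the Ovo motif CCGTTA (2.18%), read on both strands and overlapping no other motif searched, were in none of the 8 member windows. G and C made up 70% of the Snai1 window, 49.6% of the Zeb2 window and 65.2% of the Ovol2 window, with a median of 52.4% over all windows.

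All 6 arrays lay on 1 slide and came from 1 scan. Median Cy5 signal was 137 to 169 on the Lgr5-positive and 200 to 278 on the Lgr5-negative arrays, over local backgrounds with medians of 64 to 76. The share of probes called well above background ran from 50.9% to 74.4%, and saturation was flagged at 0 spots. Lgr5 itself was higher in the Lgr5-positive arrays in each of the 3 pairs, by 1.47 on the log2 scale (limma's adjusted p was 0.245 for the group alone and 0.0021 once replicate number entered as a block). Arrays with the same replicate number deviated together from their group means, so the numbers pair the arrays, and the fit with that number as a block is given beside the fit with the group alone. The 11 basal markers, among them Krt5, Krt14 and Acta2, were well above background on all 6 arrays. So were 10 of 12 endothelial markers, and 12861 of the 15680 genes tested.

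Of the factors that drive the transition, 4 were lower in Lgr5-positive cells, namely Snai1, Zeb1, Zeb2 and Foxc2, by 1.30 to 1.70 on the log2 scale. The Lgr5-positive spots of Foxc2 (2 of 3) and Zeb2 (1 of 3) were in part not well above background, so their sizes are less sure. None of the 10 genes passed limma's test with the group alone at a Benjamini-Hochberg adjusted p under 0.05, where 0.612% of all genes passed. These same 4 had an unadjusted p under 0.05 there, as 8.2% of all genes did. With the replicate block all 4 fell, against 5.61% of all genes lower in that fit, and 0 of the 10 rose, against 2.1% of all genes. Snai2, Twist1, Twist2, Ovol1, Ovol2 and Grhl2 passed in neither fit. The 4 genes that fell were the ones lower in all 3 pairs, as were 21.8% of all genes, and Twist2 and Grhl2 were higher in all 3 pairs, as were 22.5%. At the level of probes, 4 of the 10 tested probes fell with the block (3.18% of 34528 probes did) and 0 with the group alone (0.101%). In sorted bulk samples, fewer cells of a type and less transcript per cell cannot be told apart.

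**Figure D1:**
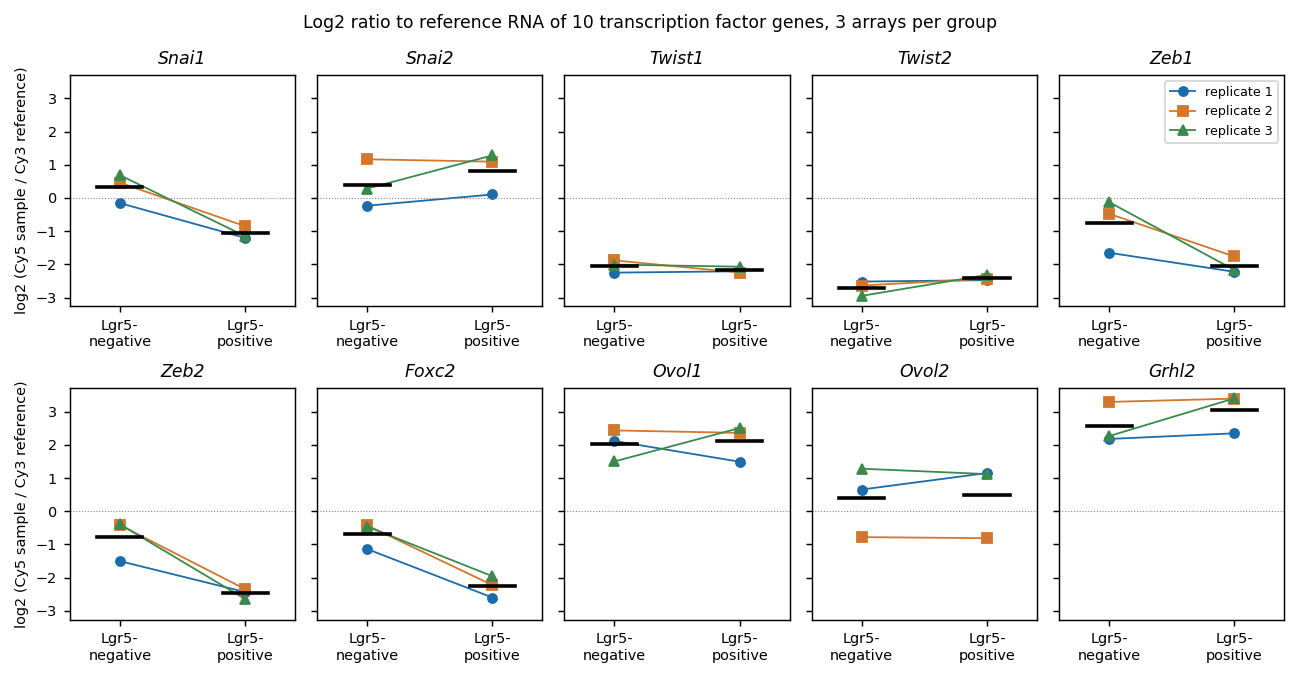
Log2 ratio of Cy5 sample to Cy3 reference (y axis) for each gene on the 3 Lgr5-negative and 3 Lgr5-positive arrays. Lines join arrays of the same replicate number and black bars are group means; Snai1, Zeb1, Zeb2 and Foxc2 go down in all 3 pairs, while Ovol2 is low on both arrays of replicate 2 (-0.81 and -0.78).

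Snai1 is a zinc finger repressor that acts early in the transition. Its log2 ratio to the reference was -1.20, -0.85 and -1.15 on Lgr5-positive replicates 1 to 3, and -0.15, 0.46 and 0.69 on Lgr5-negative replicates 1 to 3. The groups did not overlap, and each Lgr5-positive array lay below the reference. The difference of group means was -1.40 on the log2 scale (SE 0.26, adjusted p = 0.085 in the limma fit with the group alone), from 0.33 ± 0.44 to -1.07 ± 0.19 (SD, n = 3). With the replicate block Snai1 fell (SE 0.17, adjusted p = 0.0052, limma), with differences of -1.05, -1.31 and -1.84 in pairs 1 to 3. Its spots were well above background on all 6 arrays. Only 2.35% of all genes had a more negative difference.

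Zeb2 is a zinc finger and homeodomain repressor. Its tested probe had log2 ratios of -2.43, -2.34 and -2.64 on the Lgr5-positive arrays and -1.50, -0.41 and -0.39 on the Lgr5-negative ones. The groups did not overlap, and the Lgr5-negative array of replicate 1 was the lowest of its group. The difference was -1.70 (SE 0.32, adjusted p = 0.096 with the group alone in limma), or 3.26-fold, and Zeb2 fell with the block (SE 0.24, adjusted p = 0.0097 in limma). The spot was not well above background on Lgr5-positive replicate 3, and other ways of processing the same 6 arrays gave differences from -1.63 to -2.40. The second Zeb2 probe, well above background on 0 of 6 arrays, had a difference of -0.20 with overlapping groups and was not tested.

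Zeb1, the closest relative of Zeb2 and a target of the epithelial factors, showed the same direction with a wider spread. Its log2 ratios were -2.22, -1.76 and -2.17 in Lgr5-positive cells and -1.65, -0.48 and -0.12 in Lgr5-negative cells, without overlap. The smallest gap was between Lgr5-negative replicate 1 and Lgr5-positive replicate 2. The difference was -1.30 (SE 0.40, adjusted p = 0.331 with the group alone in limma), and Zeb1 fell with the block (SE 0.26, adjusted p = 0.030). Its pairs differed by -0.57, -1.29 and -2.04, the widest range among the 4 genes that fell. All 6 spots were well above background.

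Foxc2, a forkhead factor of mesenchyme and lymphatic vessels, was lower in each Lgr5-positive array. Its log2 ratios were -2.60, -2.22 and -1.96 on the Lgr5-positive arrays and -1.14, -0.42 and -0.46 on the Lgr5-negative ones. The groups did not overlap. The difference was -1.59 (SE 0.27, adjusted p = 0.071 with the group alone in limma), and Foxc2 fell with the block (SE 0.13, adjusted p = 0.0016). The pairs agreed closely, at -1.46, -1.80 and -1.50. The unnormalized Cy5 signal was 85, 138 and 149 in Lgr5-positive cells, over local backgrounds of 60, 68 and 63, and 332.5, 616 and 623 in Lgr5-negative cells. In all, 1 of the 3 Lgr5-positive spots was well above background, against 3 of 3 Lgr5-negative ones. Foxc2 would thus have passed the brightness filter on its Lgr5-negative arrays alone. With no such filter its blocked adjusted p was 0.00092. The size of the difference depends on how dim spots are handled and ran from -1.51 to -2.76 under other ways of processing the same 6 arrays.

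**Figure D2:**
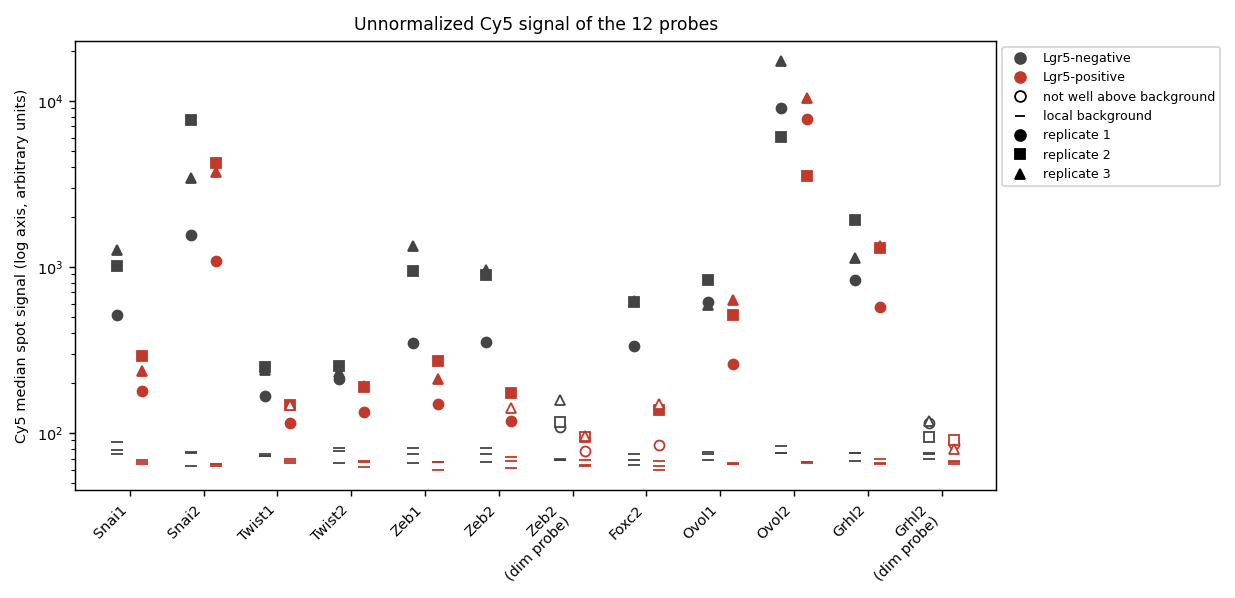
Unnormalized Cy5 median spot signal (log axis, arbitrary units) of the 12 probes, by group and replicate number, with each spot's local background as a dash. Open symbols are spots not well above background: the dim Zeb2 and Grhl2 probes on all 6 arrays, and Foxc2 on 2, Zeb2 on 1 and Twist1 on 1 Lgr5-positive array.

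The calls of these 4 genes came from the fit with the replicate block, and those of Snai1, Zeb1 and Zeb2 also needed pair 2. Without pair 2 the blocked adjusted p was 0.055 for Snai1, 0.171 for Zeb1 and 0.096 for Zeb2, whereas Foxc2 kept its call (0.021). Lgr5-negative replicate 1 had the smallest values of the 4 genes in its group, so leaving it out widens their differences. Without it all 4 passed limma with the group alone (adjusted p 0.0094 to 0.022). The calls among all 15680 genes rose as well, from 96 to 371. Leaving out any other single array gave 0 of the 4 with the group alone.

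Snai2, the relative of Snai1 that basal mammary cells make, passed in neither fit. Its log2 ratios were 0.11, 1.09 and 1.28 in Lgr5-positive cells and -0.23, 1.17 and 0.28 in Lgr5-negative cells. The groups overlapped, and replicate 1 was the lowest array in both. The difference was 0.42 with a 95% interval of -0.63 to 1.48 with the group alone and -0.06 to 0.91 with the block (adjusted p = 0.301 in limma). An interval of this width does not show equal levels. On the same arrays the difference Snai1 minus Snai2 was -1.89 ± 0.56 in Lgr5-positive and -0.07 ± 0.57 in Lgr5-negative cells (SD, n = 3). These values did not overlap, with p = 0.1 in a two-sided exact permutation test, the smallest that 3 against 3 allows (0.2 after Benjamini-Hochberg adjustment over the 4 pairs of relatives compared). With the arrays paired by number the difference changed by -1.39, -1.24 and -2.84, for which exact sign changes within the 3 pairs give p = 0.25, the smallest they can give.

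Twist1 and Twist2, which act in mesenchyme and in skin and bone development, were dim in both groups. Twist1 had log2 ratios of -2.21, -2.25 and -2.07 in Lgr5-positive and -2.25, -1.88 and -2.01 in Lgr5-negative cells, with overlapping groups. Its difference was -0.13 (95% interval -0.54 to 0.28 with the group alone; adjusted p = 0.644 with the block in limma). Twist2 was at -2.48, -2.43 and -2.32 in Lgr5-positive and -2.52, -2.64 and -2.95 in Lgr5-negative cells. Its groups did not overlap, with the Lgr5-positive arrays higher, and the pair of replicate 1 differed by only 0.04. The difference was 0.29 (95% interval -0.13 to 0.72), with limma's adjusted p at 0.945 in the fit without and 0.319 in the fit with the block. Its sign depended on scaling, at -0.083 under median centring, which shifted the median of all genes from 0.01 to -0.29. In all, the groups did not overlap for 5 of the 10 genes, against 12.2% of all genes. The difference Twist1 minus Twist2 changed by -0.42 between the groups and Zeb1 minus Zeb2 by 0.40, with p = 0.1 and p = 0.2 in the same exact permutation test (0.2 and 0.267 adjusted) and p = 0.25 for both in the exact paired test. For Ovol1 minus Ovol2 the change was 0.0017, with an exact permutation p of 1 in both tests.

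**Figure D3:**
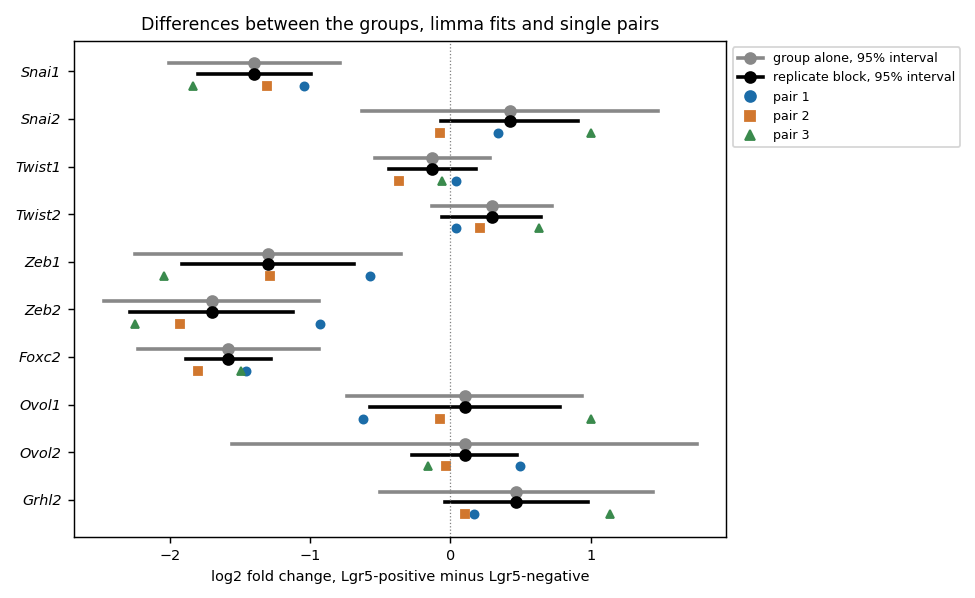
Log2 fold change, Lgr5-positive minus Lgr5-negative (x axis), with 95% intervals from limma with the group alone (grey) and with the replicate block (black), and the 3 single pairs as coloured symbols. The block narrows the intervals for all 10 genes, most for Ovol2, from -1.56 to 1.76 down to -0.28 to 0.48.

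The tested probes of the epithelial factors were well above background on all 6 arrays, and none passed in either fit. Ovol1, a zinc finger factor of epidermis and other epithelia, was at 1.49, 2.36 and 2.51 in Lgr5-positive and 2.12, 2.44 and 1.50 in Lgr5-negative cells. Both groups lay above the reference and overlapped. The difference was 0.10 (95% interval -0.58 to 0.78 with the block, adjusted p = 0.883 in limma). The pairs went in both directions, at -0.63, -0.07 and 1.01, and under median centring the value was -0.043.

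Grhl2 is a grainyhead factor that activates junction genes such as Cdh1 and Cldn4. Its tested probe was at 2.35, 3.40 and 3.40 in Lgr5-positive and 2.18, 3.30 and 2.27 in Lgr5-negative cells. The groups overlapped, although the Lgr5-positive array was the higher one in each pair, by 0.17, 0.10 and 1.14. The difference was 0.47 (95% interval -0.04 to 0.98 with the block, adjusted p = 0.276 in limma). Its second probe, well above background on 0 of 6 arrays, had a difference of -0.10.

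Ovol2, a zinc finger factor that represses Zeb1, followed the replicate number rather than the group. Its log2 ratios were 1.15, -0.81 and 1.12 in Lgr5-positive and 0.66, -0.78 and 1.28 in Lgr5-negative cells. Both replicate 2 arrays were low, and the other 4 lay above them by at least 1.43. The difference between groups was 0.10 (SE 0.70 with the group alone and 0.16 with the block, adjusted p = 0.776 in the blocked limma fit), and -0.34 under median centring. Replicate number took 97.1% of the sum of squares of Ovol2 over the 6 arrays, and 5.67% of genes had a higher share. The median gene had 71.1%. The spot was bright, with unnormalized Cy5 signals of 3514 to 17312.5 over backgrounds of 66 to 83.5. The probe belongs to the A_55 series of probe names, in which such low values on both replicate 2 arrays were seen in 3.35% of genes, against 0.259% in the A_51 series.

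For the remaining genes, the share of the spread that lay between groups restates the group difference that the fits tested. The group took 86.6% of the sum of squares for Snai1, 83.6% for Zeb2, 87.6% for Foxc2 and 64.4% for Zeb1, against 9.47% for the median gene. It took 12.9% for Snai2, 22.1% for Twist1, 53.7% for Twist2, 1.47% for Ovol1 and 18% for Grhl2. These shares are descriptions of the same arrays that gave the fits.

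**Figure D4:**
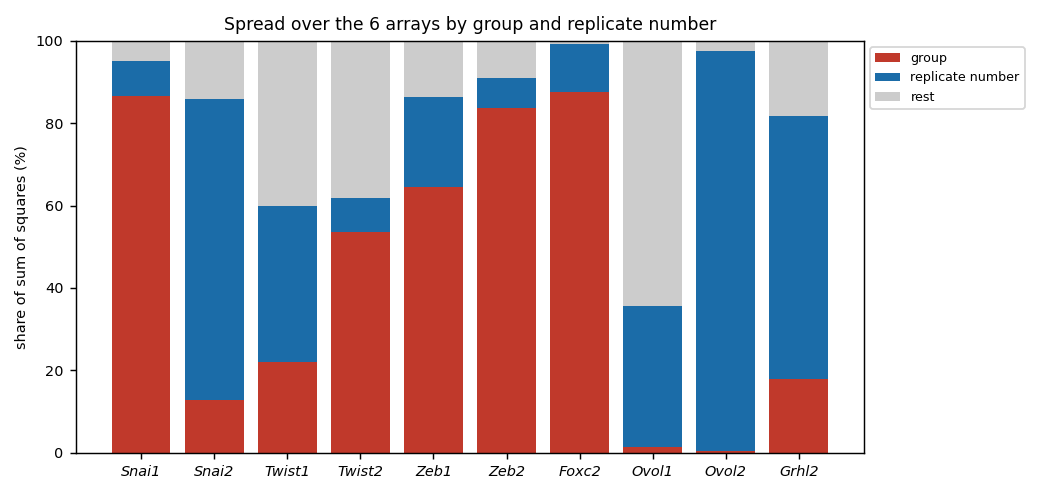
Share of the sum of squares over the 6 arrays (%) that lies between groups, between replicate numbers and in the rest, for each of the 10 genes. Group is the largest share for Foxc2 (87.6%), Snai1 (86.6%), Zeb2 (83.6%), Zeb1 (64.4%) and Twist2 (53.7%). Replicate number is the largest for Ovol2 (97.1%), Snai2 (72.9%) and Grhl2 (63.7%), where the median of all genes is 71.1%.

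Other transcription factors linked to the transition moved in both directions. Of 15 tested members of that list 3 rose and 2 fell with the block, where 2.1% of all genes rose and 5.61% fell; 0 passed with the group alone, and the median was -0.14, against 0.01 over all genes. Sox9, a factor of several progenitor cells, rose by 0.88 (SE 0.14, adjusted p = 0.014 with the block). Sox4 rose by 0.62 (0.29 on a second probe) and Tbx3, which mammary bud formation needs, by 0.57. Foxc1, the relative of Foxc2, fell by 0.54 and Tbx2, the relative of Tbx3, by 0.72 (well above background on 3 arrays). The adjusted p of Sox4, Tbx3, Foxc1 and Tbx2 was 0.030 to 0.046 in the blocked limma fit. Blocked calls held in 9 of 11 other settings for Sox9 and Tbx3, 7 for Foxc1, 6 for Sox4 and 7 of 10 for Tbx2. Snai3, the third Snail gene, was at -0.14, Tcf4, an E protein that pairs with Twist factors, at -0.76, and Prrx1 at -0.23; none of these passed.

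Other epithelial transcription factors also split. Of 14 tested, 2 fell and 1 rose with the block, against the same 5.61% and 2.1% of all genes; 0 passed with the group alone, and the median was -0.27. Grhl1, a relative of Grhl2, fell by 1.12 (SE 0.16, adjusted p = 0.010 with the block), as did Foxa1, which works beside the estrogen receptor in luminal cells, by 0.98 (SE 0.14, adjusted p = 0.0089). Tfap2c, which takes part in luminal gene expression, rose by 0.66 (SE 0.13, adjusted p = 0.031), a call that was lost in 5 of 11 other settings. Trp63, the master factor of basal cells, was at 0.07 and Grhl3 at -0.41, and neither passed.

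Of 23 epithelial junction, splicing and membrane genes 2 fell with the block, a share near the 5.61% of all genes, and 0 rose; 0 passed with the group alone, and the median was 0.03. Of the 23 values 11 were negative and 12 positive. Cdh1 was at 0.20 (adjusted p = 0.567 with the block), Epcam at 0.31 and Esrp1, a splicing factor lost in mesenchymal cells, at 0.14. Cldn4 was at -0.41 (-1.02 on a second probe) and Esrp2, the relative of Esrp1, at -0.33, and neither passed. Rab25, an epithelial trafficking GTPase, was one of the 2 that fell, by 0.69 (SE 0.14, adjusted p = 0.034). Of 19 mesenchymal genes 2 rose and 1 fell with the block, against 2.1% and 5.61% of all genes; 0 passed with the group alone, and the median was -0.05. Mmp2, a matrix protease, rose by 0.73 (adjusted p = 0.019) and Postn, a matrix protein, by 0.96 (adjusted p = 0.024), while the collagen gene Col3a1 fell by 0.53 (adjusted p = 0.041). Vim, the intermediate filament of mesenchymal and basal cells, was at -0.05, Fn1 at 0.30 and Cdh2, N-cadherin, at -0.66; these did not pass.

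**Figure D5:**
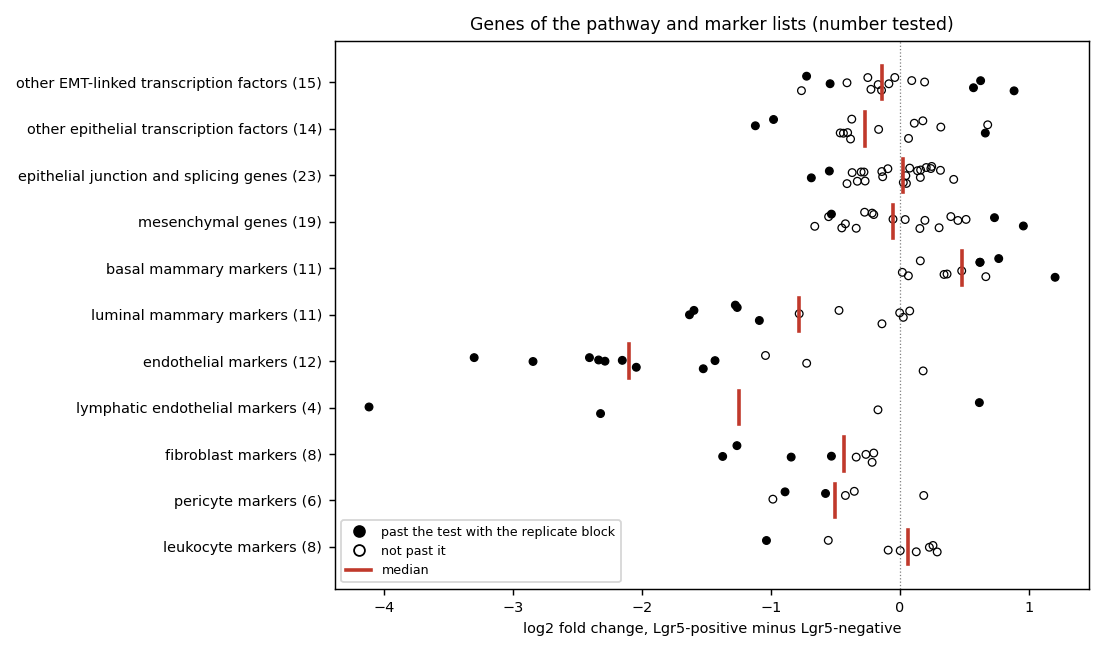
Log2 fold change, Lgr5-positive minus Lgr5-negative (x axis), of each tested gene in the pathway and marker lists. Filled points passed limma with the replicate block and red lines are medians; the endothelial list has the lowest median (-2.10), while the junction and mesenchymal lists lie at 0.03 and -0.05.

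Markers of other cell types moved on the same arrays as Snai1, Zeb1, Zeb2 and Foxc2. Of 12 endothelial markers 9 fell with the block, against 5.61% of all genes, and 3 with the group alone, against 0.587%, with a median of -2.10; their summed Cy5 intensity after quantile normalization was 10530 to 24670 on Lgr5-positive and 74550 to 175300 on Lgr5-negative arrays. With the group alone, Egfl7 was at -3.30 (adjusted p = 0.029 in limma) and Plvap at -2.41 (0.035; a second probe gave -1.02), and Tie1 was the third (0.048). Tie1 had 0 of 3 Lgr5-positive spots well above background, so it was tested through the Lgr5-negative arrays alone, and with no filter its adjusted p was 0.051. Kdr, an endothelial receptor for vascular growth factors, was at 0.18 on its brightest probe and at -2.66 on another. Endothelial medians were -1.95, -1.37 and -2.73 in pairs 1 to 3, beside -0.93, -1.93 and -2.25 for Zeb2. Of 4 lymphatic markers tested out of 7, 2 fell and 1 rose with the block, against 5.61% and 2.1% of all genes. With the group alone 2 fell, against 0.587%. Flt4 was at -0.17 and passed in neither fit, with 1 of 3 Lgr5-positive spots well above background. Lyve1 (-4.12) fell in both fits and Pdpn rose (0.61) with the block. Mmrn1 also fell in both, but with 0 of 3 Lgr5-positive spots well above background it entered through the Lgr5-negative arrays alone, and with no filter its adjusted p with the group alone was 0.057. A second Pdpn probe gave 0.22, and the blocked call of Pdpn was kept in 6 of 11 other settings. The lymphatic list had sums of 6283 to 11010 in Lgr5-positive and 7458 to 18360 in Lgr5-negative cells. Prox1, the factor that defines lymphatic endothelium, was among those not tested.

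Of 8 fibroblast markers 4 fell with the block, where 5.61% of all genes fell, and 0 rose (median -0.44; Dcn -1.37, Pi16 -1.26, Lum -0.84), with sums of 24520 to 27800 and 35440 to 45990. Of 6 pericyte markers 2 fell (median -0.50; Notch3 -0.89, Rgs5 -0.58), with sums of 2418 to 3461 and 3074 to 4143. Of 8 leukocyte markers 1 fell (Cd74, -1.04; median 0.06), with sums of 7828 to 57190 and 7534 to 50510. For the leukocyte list the count is near what that share of all genes gives. None of these 3 lists had a member past the test with the group alone. Of 31 list genes that the naming rule picked and that passed with the block, 8 kept their calls without each pair in turn (Egfl7, Plvap, Tie1, Lyve1, Mmrn1, Dcn, Ly6a and Cited1; of these, Tie1 and Mmrn1 were tested through the Lgr5-negative arrays alone) and 8 lost them whichever pair was left out (among them Tbx3, Foxc1, Tfap2c, Col3a1, Pdpn, Lum and Rgs5); the highest adjusted p came without pair 2 for all 31. The part of endothelial, fibroblast or other cells in the lower values of the 4 factors was not tested.

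All 11 basal markers had positive values on the probe that stood for the gene (median 0.48). With the block 4 of them rose, where 2.1% of all genes rose. Among these were Oxtr by 0.76, Cdh3 by 1.20 and Cnn1 by 0.62. The calls of Oxtr and Cnn1 were kept in 6 of 11 other settings, with values down to 0.29 and 0.22, and that of Cdh3 in 8 of 11. Second probes gave -0.21 for Krt5, 0.47 for Mme and 0.12 for Itgb1. Itga6 and Myh11 were at only 0.06 and 0.02, with pairs in both directions. Of 11 luminal markers 5 fell with the block, against 5.61% of all genes, and 0 rose (median -0.78), with Ly6a at -1.63, Esr1 at -1.26 and Cited1 at -1.09. A second Esr1 probe gave -0.14. Krt19 (-0.78), Pgr (-0.47), Prlr (-0.14), Krt8 (0.08), Krt18 (0.03) and Aldh1a3 (-0.003) did not pass, with pairs in both directions. A second Prlr probe gave -1.71. Neither list had a member past the test with the group alone.

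The 5 genes whose log2 ratios over the 6 arrays were most like those of Foxc2, the gene with the lowest p of the 10, were Enpep, an aminopeptidase, Nod2, a sensor of bacterial cell walls, Tspan33, a tetraspanin, Gas7 and Ces2c. Pearson's r across the 6 arrays was 0.991 to 0.994, and 3.37% of all genes had an r over 0.9. With 6 arrays that fall into groups and pairs, such values describe a shared pattern and are given without a test. Their differences were -1.88 for Enpep, -1.77 for Nod2, -0.76 for Tspan33, -1.02 for Gas7 and -1.01 for Ces2c, whose close paralogues may share the probe. Under other ways of processing the same 6 arrays Enpep ran from -1.49 to -3.20 and Nod2 from -1.51 to -2.31.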

How the data were processed

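Each of the 6 arrays has a deposited scanner file from Agilent Feature Extraction, version 11.0 in the submitters' processing notes and 11.0.1.1 per the file headers. The authors' files give pixel-median intensity of spots and local background, a processed intensity, flags, and the log10 of the processed Cy5/Cy3 ratio, per the file headers. The authors' deposited value table holds log2 ratios; the values show each probe centred on its median over the 6 arrays, with column medians of -0.0016, 0.031 and 0.018 for Lgr5-positive and 0.0064, -0.017 and -0.048 for Lgr5-negative replicates 1 to 3, and what else was done to them is not given in the sources used here.

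Median signals were corrected with normexp (offset 50) and loess-normalized within arrays in limma 3.58.1 (R 4.3.3), with control and outlier-flagged spots at weight 0 and then left out. RefSeq transcripts named 27509 probes (table of GRCm38.p6, names only, as the array is annotated on mm9). Probes well above background in Cy5 on at least 3 arrays were kept, the brightest stood for a gene, and 15680 genes were fitted with lmFit and eBayes, two-sided, with Benjamini-Hochberg adjustment at 0.05. Fold changes are Lgr5-positive minus Lgr5-negative of log2 (Cy5/Cy3), with no dye swap. The number of arrays limits the precision.

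Same-numbered arrays had correlated deviations from their group means across genes (0.810, 0.819 and 0.675), which pairs them; the pairing comes from the labels' replicate numbers. Within a pair the Lgr5-positive array lay 1 slide column before the Lgr5-negative one, so position and group cannot be told apart. The genes and lists were chosen with earlier results of these data known. Genes named from a list are up to 6 (3 in marker lists) past the threshold with the group alone, then with the block, or else the 2 with the lowest p; a few others are named for their role, chosen after their values were seen, and 1 is not reported here. The scripts were tested on simulated data. Other normalizations, filters, ratios, weights and left-out arrays were tried.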

Additional observations from a re-analysis of the deposited data

How the results depend on the processing

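The replicate block moved the genes past the threshold from 96 to 1210, the members' genes from 0 to 4 and their probes from 0 to 4, and changed the call of no other member; array weights gave 312, 3 (Snai1, Zeb2, Foxc2) and 3. With the group alone, median centring gave 9 genes, scale normalization between arrays 2 and a filter asking for all 6 arrays above background 44. Leaving out 1 array gave 0 (without Lgr5-positive replicate 1 or 3) to 371 genes (without Lgr5-negative replicate 1) and 0 to 4 member genes and probes, the 4 also without Lgr5-negative replicate 1. With the block, median centring, which moves the median of all genes to -0.29, gave 5790 genes (128 higher, 5662 lower, against 330 and 880), the scanner's ratios 738, the authors' deposited log2 ratios gave 753 and scale normalization 649. Without 1 pair it was 326 to 1397 genes, 1 to 4 member genes (only Foxc2 without pair 2) and 2 to 4 probes. With the filter on all 6 arrays 2 member genes and probes passed, since Zeb2 and Foxc2 were not tested there. The causes of the other changes were not tested.

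Directions turned under median centring for Snai2 (-0.039), Twist2 (-0.083), Ovol1 (-0.043) and Ovol2 (-0.34), in both fits. With arrays left out, Ovol1 was at -0.02, -0.09 and -0.16 without Lgr5-positive replicate 2 or 3 or Lgr5-negative replicate 3, and -0.35 without pair 3; its highest value with an array left out was 0.42. Ovol2 was at -0.23, -0.22 and -0.48 without Lgr5-positive replicate 1 or 3 or Lgr5-negative replicate 2, and -0.098 without pair 1; its highest was 0.75. Snai2 ran from 0.10 to 0.80 and Grhl2 from 0.27 to 0.83 with 1 array left out, and without pair 3 both were at 0.13; Grhl2 was also at 0.13 under median centring. The blocked calls of Snai1 held in 11 of 11 other settings that keep all arrays, Zeb2 and Foxc2 in 10 of 10 and Zeb1 in 10 of 11, with scale normalization the exception (adjusted p = 0.059). Twist1 passed in 1 of 10, median centring (-0.40, adjusted p = 0.043). These settings overlap and are not separate tests. Snai1 stayed at -1.40 under changed filters, kept outlier spots and the mean of all kept probes. It was at -1.57 with both the scanner's and the deposited ratios. Blocked settings other than median centring, the scanner's ratios and left-out pairs were added after the data were seen. The low Cy5 signal of Foxc2 and Twist1 over background limits their sizes.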

Other observations

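The pattern of Ovol2, low on both arrays of replicate 2 and in neither group, was shared by many genes on the array. In 290 of 15680 genes (1.85%) both replicate 2 arrays lay at least 1 below the other 4 on the log2 scale, and in 0 genes did both lie at least 1 above them; this count was chosen after the values were seen. Of the 290, 269 were well above background on all 6 arrays. The 290 were unevenly spread over the series of probe names: 267 of 7966 genes read by an A_55 probe (3.35%), against 12 of 4630 with an A_51 probe (0.259%) and 6 of 2320 with an A_52 probe (0.259%). Ovol2 was the only one of the 10 genes in this set. The genes most like it over the 6 arrays were Il5ra, a cytokine receptor of eosinophils, Samd10, Ccdc82, Tmprss3, a serine protease, and Fam234b (Pearson's r 0.997 to 0.998 over 6 arrays). Itgam, an integrin of myeloid cells, had the same shape. Its quantile-normalized Cy5 intensity was 3666 and 3266 on the replicate 2 arrays and 27730 to 52700 on the other 4. On those 4 it made up most of the leukocyte sum. For 2 other Itgam probes only group differences (0.04 and 0.07) are given, which do not show whether they share this shape. The cause of the low replicate 2 values was not tested.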
